A study of Arabidopsis thaliana with 8 samples.

Results

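Genes that take iron from the soil, prepare it for uptake and store it were followed in 10-day-old Arabidopsis seedlings, with 10 of them chosen by their locus identifiers. They are the iron transporter IRT1 (AT4G19690), the ferric reductases FRO2 (AT1G01580) and FRO3 (AT1G23020), the coumarin genes F6'H1 (AT3G13610), S8H (AT3G12900), CYP82C4 (AT4G31940) and ABCG37 (AT3G53480), the nicotianamine synthase gene NAS4 (AT1G56430), and the ferritin genes FER1 (AT5G01600) and FER4 (AT2G40300). Of these, 9 had values among the 22636 genes that all deposited tables share, and S8H was not analysed here. The 9 genes all passed the filter on low values in every comparison with wild type.

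Messenger RNA was sequenced from 4 groups of whole Col-0 seedlings, with 2 libraries in each: wild type (WT), arid5(-/-), chr11(-/-)chr17(-/-) and rlt1(-/-)rlt2(-/-). The plants grew for 10 days on MS plates with 16 h light (23 °C) and 8 h dark (21 °C), in all groups alike. CHR11 and CHR17 are the ISWI ATPases, which slide nucleosomes, and ARID5, RLT1 and RLT2 are their partner proteins. The alleles behind the genotypes are not named in the labels, and nothing says whether the libraries of a group are from separate plants. P-values therefore reflect the spread among libraries alone, and that spread could be technical.

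Arabidopsis roots acquire iron by reduction: a proton pump acidifies the soil, FRO2 reduces ferric iron at the root surface, and IRT1 carries the ferrous ion into the epidermis. Roots also secrete coumarins, phenolic compounds made by F6'H1, S8H and CYP82C4 and exported by ABCG37, which help to mobilise iron that is poorly soluble. Inside the plant iron travels bound to chelators such as nicotianamine, and excess iron is held in ferritin, a protein shell that in leaves lies in the plastids. Genes of uptake are known to be induced by iron deficiency and FER1 by iron excess.

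The mutated genes and the libraries were examined before the iron genes. The ARID5 transcript fell in arid5, from deposited values of 831 and 845 to 213 and 206 (adjusted p = 5.8e-08, limma). RLT2 fell from 2292 and 2161 to 88 and 61 in the libraries labelled rlt1/2, whereas RLT1 did not pass the test there (1955 and 1970 in WT, 2318 and 1908 in the mutant). CHR17 fell from 1395 and 1316 to 771 and 833 in the libraries labelled chr11/17, and CHR11 rose there from 3077 and 2915 to 7226 and 7319. The CHR11 and RLT1 levels go against a loss of transcript, so chr11/17 and rlt1/2 below stand for the libraries so labelled. The libraries held 23135817 to 29965298 reads in the genes shared by the tables. Root markers (24 genes) and green tissue markers (15 genes) had reads in every library. Summed root marker level was 250 and 286 CPM (TMM-scaled) in WT, 296 and 283 in arid5, 170 and 183 in chr11/17, and 287 and 316 in rlt1/2. Summed green tissue level was 89200 and 85900 in WT and 13100 to 48000 in the 6 mutant libraries, and all 15 green markers were lower in each mutant. In such whole-seedling libraries, fewer cells of a type and less RNA per cell cannot be told apart.

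Short sites near the ferritin genes are shown because all 4 rose in every comparison with WT below, as 15% of the 20258 genes tested throughout did. The promoters of the members, from 250 bases before to 50 bases after the annotated start (RefSeq, TAIR10.1), were searched on each strand for the G-box CACGTG, for CACGAGNCC, the start of the iron-dependent regulatory sequence (IDRS) of ferritin genes, and for the phosphate-response element P1BS, GNATATNC. The G-box is in 7.68% of 27438 promoters of that length, CACGAGNCC in 0.193% and P1BS in 6.25%. Among the promoters of the 10 genes and of the ferritin genes FER2 and FER3, G-boxes were found in FRO3, FER2, FER3 and FER4, and neither other motif was found in any. The annotated FER1 transcript starts far upstream of its coding sequence, so the 300 bases before the first coding base were searched as well, a window chosen after the promoters had been seen. There, each of the 4 ferritin genes held 1 G-box, which 6.28% of all genes hold in that window, and FER1 also held CACGAGNCC (0.215% of genes) and P1BS (5.22%). CACGAGNCC was known beforehand from a ferritin promoter, so its match beside a ferritin gene was not a test. The motifs were not confined to the ferritin genes: FRO2 held 2 P1BS matches in that window, 99 and 58 bases before the first coding base, and FRO3 a G-box 263 bases before it. The G-box of the ferritin genes lay 121 to 143 bases before the first coding base. Counted from the annotated transcript start, with upstream negative, it lay at 314 in FER1, 31 in FER2, -76 in FER3 and -69 in FER4. The 30-base sites follow, read on the gene's own strand, with the motif in capitals.
FER1 G-box, chr5:229720-229749, minus strand: atatccaccctcCACGTGgatctcaatcca
FER2 G-box, chr3:3463496-3463525, plus strand: ttctcctctttcCACGTGtccaacaaacag
FER3 G-box, chr3:20816094-20816123, minus strand: atcgtatccatcCACGTGtcaacaatccac
FER4 G-box, chr2:16833346-16833375, minus strand: atctcgtacgtaCACGTGtctctcatccgc
FER1 IDRS start, chr5:229765-229794, minus strand: ttggatgtagCACGAGGCCgccacacgccc
FER1 P1BS, chr5:229803-229832, minus strand: taacgtggatcGAATATCCtcacgttcaca
The FER1 IDRS start lay 181 bases before the first coding base and the G-box of that gene 137 bases before it. The FER1 IDRS start and P1BS lay 267 and 230 bases downstream of the annotated transcript start. A match of letters is a description of the sequence and does not show that a factor binds there.

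Transcript levels of the 9 genes covered a wide range in WT. Compared per length, as TMM-scaled RPKM computed from the recovered reads, FER1 stood highest with a WT mean of 124 ± 2.15 (SD, n = 2). FRO3 (16 ± 0.149) and FER4 (14.8 ± 0.494) came next, then ABCG37 (11.6 ± 0.74), F6'H1 (10.9 ± 0.417) and NAS4 (9.66 ± 0.508). ABCG37 and F6'H1 overlapped in WT, and no other neighbours in this order did. IRT1 (4.85 ± 1.31), FRO2 (1.85 ± 0.129) and CYP82C4 (0.822 ± 0.417) were lowest, and relative to their means the CYP82C4 and IRT1 libraries differed most. Each mutant kept FER1 at the top and IRT1, FRO2 and CYP82C4 at the bottom, but the order between them shifted. F6'H1 was the second highest in arid5 (37.7 ± 1.39) and in rlt1/2 (38.7 ± 5.45), and ABCG37 was so in chr11/17 (34.4 ± 0.462).

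Each mutant was then compared with the WT libraries of its own table. The deposited values are normalised read counts, scaled within a table, so the same WT libraries carry slightly different values in each. Each log2 change, given with its standard error, sets the mutant over WT after adding 10 to every value, which understates the change of low genes; folds are ratios of group means of scaled reads. Adjusted p-values are from limma and cover every gene tested in that table; the threshold was 0.05. All 3 comparisons use the same WT libraries, so they are not independent of each other.

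In arid5, 4 of the 9 genes were higher and 3 were lower, and FRO3 and NAS4 did not pass the test. The background was 23.3% of 20550 genes higher and 24.6% lower. The members were chosen with earlier results of these data known, so their counts beside a background are descriptive. In the libraries labelled chr11/17, 3 genes were higher against a background of 35.9% of 20878 genes, and 4 were lower against 36%. In those labelled rlt1/2, 5 were higher against 23.8% of 20741 genes. None was lower by limma against 24% of genes, and none was lower at an unadjusted p under 0.05 or by edgeR or DESeq2. ABCG37, FER1 and FER4 were higher in all 3 comparisons, which 15% of the 20258 genes tested throughout also were. The median log2 change of the 9 genes was 0.13 in arid5, 0 in chr11/17 and 0.28 in rlt1/2, beside 0.003, -0.007 and 0.009 over all genes. Scaling to equal library totals in place of the deposited scaling shifted the split of all genes, from 4784 higher and 5062 lower to 9766 and 2674 in arid5, and from 4944 and 4982 to 9680 and 2695 in rlt1/2.

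**Figure D1:**
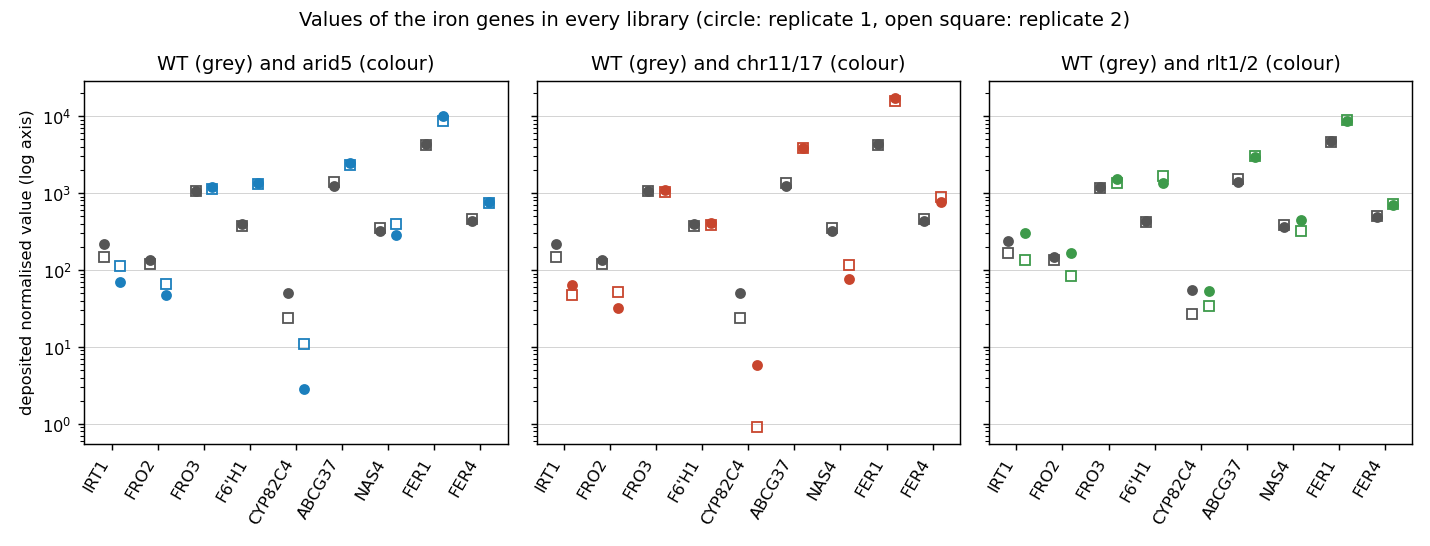
Deposited normalised value (log axis) of each of the 9 genes in every library, with WT in grey and the mutant of that table in colour; circles are replicate 1 and open squares replicate 2. FER1, FER4 and ABCG37 lie above WT in each panel, and IRT1, FRO2 and CYP82C4 lie below WT in the arid5 and chr11/17 panels but overlap it in the rlt1/2 panel.

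The uptake genes IRT1 and FRO2 fell in arid5 and chr11/17. IRT1, on chr4:10707344-10709015 (plus strand), had deposited values of 217 and 148 in WT and 69 and 114 in arid5. The groups did not overlap, and IRT1 fell 1.99-fold (log2 change -0.93 ± 0.23, adjusted p = 0.00548). This call rested on WT replicate 1: without it the change was -0.67 and the adjusted p 0.051. With chr11/17, IRT1 values were 216 and 148 in WT and 64 and 48 in the mutant. IRT1 was lower in each mutant library than in either WT library, a 3.26-fold fall (-1.53 ± 0.23, adjusted p = 0.000796). With rlt1/2, IRT1 read 239 and 165 in WT against 301 and 134 in the mutant. The pair of mutant libraries lay on opposite sides of WT, and the change was 0.02 ± 0.28 with a 95% interval of -0.59 to 0.64. Each of these libraries decided the call: without rlt1/2 replicate 1 IRT1 was lower (-0.53, adjusted p = 0.0326), and without rlt1/2 replicate 2 it was higher (0.58, adjusted p = 0.0134).

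FRO2, which supplies IRT1 with reduced iron, lies on chr1:208995-213082 (plus strand). Its values were 133 and 121 in WT and 47 and 65 in arid5, a 2.26-fold fall (-1.06 ± 0.19, adjusted p = 0.000701). In the chr11/17 table FRO2 had 133 and 121 in WT and 32 and 51 in the mutant, a 3.05-fold fall (-1.43 ± 0.22, adjusted p = 0.000873). No mutant library of either table reached a WT value. With rlt1/2, FRO2 had 147 and 134 in WT and 167 and 84 in the mutant, again on opposite sides of WT. The change was -0.22 ± 0.24, with a 95% interval of -0.76 to 0.31, and without rlt1/2 replicate 1 FRO2 was lower (-0.68, adjusted p = 0.00899). Beside the falls of IRT1 and FRO2, the summed root marker level was 296 and 283 in arid5 against 250 and 286 in WT. There 10 of 24 root markers were higher and 4 lower, beside 23.3% and 24.6% of all genes. In chr11/17 that sum was 170 and 183, with 7 markers higher and 7 lower, beside 35.9% and 36% of all genes. In rlt1/2, where IRT1 and FRO2 were not called, 10 markers were higher and 3 lower, beside 23.8% and 24% of all genes. PHO1 alone gave 86.7 and 102 CPM of the sum in WT and 25.6 and 29.4 in chr11/17. Without PHO1, left out after its values were seen, the sum was 163 and 183 in WT and 145 and 154 in chr11/17. The part of these markers in the result was not tested.

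FRO3, a ferric reductase assigned to mitochondria, on chr1:8149868-8153796 (minus strand), moved little. Its values were 1077 and 1068 in WT and 1210 and 1145 in arid5, a change of 0.13 ± 0.06 that did not pass the test (95% interval -0.01 to 0.27). With chr11/17, FRO3 had 1076 and 1066 in WT and 1099 and 1042 in the mutant, with a change of 0 ± 0.07 (95% interval -0.17 to 0.17). With rlt1/2 it had 1193 and 1179 against 1523 and 1366, a 1.22-fold rise (0.28 ± 0.08, adjusted p = 0.011). That rise no longer passed when WT replicate 1 was left out (0.29, adjusted p = 0.0503), nor when WT replicate 2 was (0.27, adjusted p = 0.065). Scaled to equal library totals, FRO3 was also higher in arid5 (0.39, adjusted p = 0.000517). FRO3 shares 24 bases with AT1G23010 on the opposite strand, which changed by 0.84 ± 0.22 in arid5, 2.51 ± 0.22 in chr11/17 and 1.14 ± 0.2 in rlt1/2. The strand setting of the counting is not given in the sources used here, so reads of the shared bases cannot be told apart.

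The coumarin genes divided by mutant and by step. F6'H1 hydroxylates feruloyl-CoA, the step that commits to the coumarin scopoletin, and lies on chr3:4449259-4450811 (plus strand). Its values were 396 and 377 in WT and 1367 and 1300 in arid5, a 3.45-fold rise (1.76 ± 0.07, adjusted p = 3.62e-08). With rlt1/2, F6'H1 had 439 and 417 in WT and 1367 and 1669 in the mutant, a 3.55-fold rise (1.8 ± 0.1, adjusted p = 1.12e-07). With chr11/17 it had 396 and 377 in WT and 410 and 387 in the mutant. Here the groups overlapped, and the change was 0.04 ± 0.1 with a 95% interval of -0.19 to 0.27. F6'H1 shares 67 bases with AT3G13620 on the opposite strand, whose reads there cannot be told apart for the same reason. That gene changed by -0.11 ± 0.12 in arid5, -0.51 ± 0.14 in chr11/17 and -0.29 ± 0.12 in rlt1/2.

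ABCG37, the exporter, lies on chr3:19825267-19831880 (plus strand) and rose in each mutant. Its values were 1247 and 1371 in WT and 2489 and 2282 in arid5, a 1.82-fold rise (0.86 ± 0.07, adjusted p = 1.59e-06). In the chr11/17 table they were 1245 and 1369 against 3841 and 3792, a 2.92-fold rise (1.54 ± 0.07, adjusted p = 4.57e-06). With rlt1/2, ABCG37 had 1381 and 1513 in WT and 2897 and 3037 in the mutant, a 2.05-fold rise (1.03 ± 0.07, adjusted p = 7.34e-07). Every mutant library was above every WT library of its table.

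CYP82C4, the oxidase that turns fraxetin into sideretin, was the weakest transcript of the set. It lies on chr4:15451988-15454224 (plus strand), and its coding sequence is 93% identical to that of CYP82C2 and 92.7% to that of its neighbour CYP82C3, so the assignment of its reads is uncertain. Its values were 50 and 24 in WT and 2.8 and 11 in arid5, from 48 and 23 reads against 3 and 12. It fell by 1.45 ± 0.33 on the log2 scale (adjusted p = 0.00373), but the call was lost without WT replicate 1 (-1.04, adjusted p = 0.0505). In chr11/17 CYP82C4 had 5.8 and 0.9, from 6 and 1 reads, and fell by 1.79 ± 0.33 (adjusted p = 0.00235). These changes depended on the pseudocount, and with 1 in place of 10 they were -2.38 and -3.32. Without either WT library, CYP82C4 no longer met the filter in the chr11/17 table. With rlt1/2 the values were 55 and 27 in WT and 54 and 34 in the mutant, overlapping, with a change of 0.11 ± 0.29 (95% interval -0.53 to 0.74).

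NAS4 makes nicotianamine, the chelator of iron in the phloem, and lies on chr1:21136835-21138277 (plus strand). It had 323 and 349 in WT and 282 and 393 in arid5, where the groups overlapped (-0.01 ± 0.14, 95% interval -0.32 to 0.3). In the chr11/17 table NAS4 had 322 and 348 in WT and 77 and 117 in the mutant, a 3.46-fold fall (-1.71 ± 0.19, adjusted p = 0.000198). With rlt1/2 it had 358 and 385 against 446 and 319, again overlapping (0.02 ± 0.14, 95% interval -0.29 to 0.34).

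FER1, the ferritin gene best known from the response to iron excess, lies on chr5:227953-230051 (minus strand) and had the highest values of the set. It had 4295 and 4210 in WT and 10079 and 8754 in arid5, a 2.21-fold rise (1.14 ± 0.07, adjusted p = 2.67e-07). In chr11/17 it reached 17428 and 15768 from 4289 and 4204 in WT, a 3.91-fold rise (1.96 ± 0.09, adjusted p = 3.41e-06). With rlt1/2, FER1 had 4755 and 4647 in WT and 8523 and 9004 in the mutant, a 1.86-fold rise (0.9 ± 0.08, adjusted p = 2.34e-06). All mutant libraries were above WT. An antisense noncoding gene, AT5G01595, overlaps FER1 over 1334 bases, and the strand setting of the counting is not given in the sources used here, so reads of the pair cannot be told apart. That gene had 22.2 and 27 in WT, 12.6 and 12.2 in arid5 (adjusted p = 0.0521) and 6.7 and 6.67 in chr11/17 (adjusted p = 0.00329).

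FER4, on chr2:16831109-16833294 (minus strand), codes for another ferritin of leaves. It had 436 and 459 in WT and 769 and 747 in arid5, a 1.69-fold rise (0.75 ± 0.08, adjusted p = 1.41e-05). In chr11/17 FER4 had 757 and 885, a 1.84-fold rise from WT values of 436 and 459 (0.86 ± 0.1, adjusted p = 0.000232). In rlt1/2 it had 689 and 725 against 483 and 507 in WT, a 1.43-fold rise (0.5 ± 0.09, adjusted p = 0.000589). The groups did not overlap in any table. FER4 shares 118 bases with the gene AT2G40290 on the same strand, which rose in chr11/17 from 1680 and 1790 to 1990 and 2000 (0.21 ± 0.07, adjusted p = 0.0293). AT2G40290 was not called in arid5 (1680 and 1790 against 1870 and 1700) or rlt1/2 (1860 and 1970 against 1950 and 2060). Beside these rises the green tissue markers fell in each mutant, and their part in the result was not tested.

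**Figure D2:**
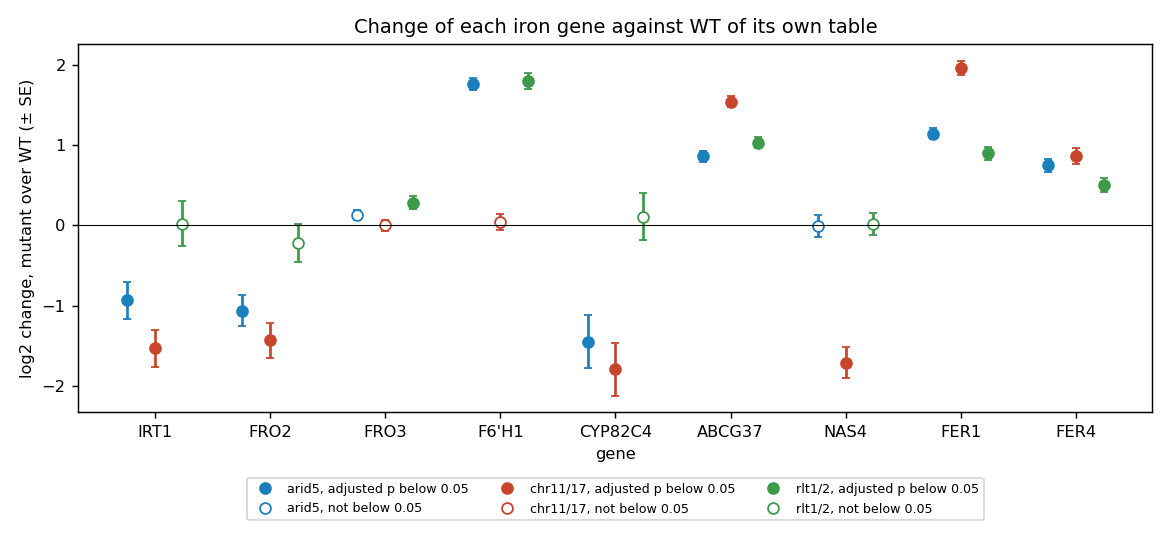
Log2 change of each gene, mutant over WT of its own table, with bars of 1 standard error; filled points have an adjusted p below 0.05 (limma). FER1 and ABCG37 reach their highest changes in chr11/17, F6'H1 rises in arid5 (1.76) and rlt1/2 (1.8) but stays at 0.04 in chr11/17, and NAS4 falls in chr11/17 alone among the mutants tested.

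Whether the mutants differed from each other was tested on the recovered whole reads of all 8 libraries in 1 edgeR fit. Between chr11/17 and arid5, 4 of the 9 genes differed, where 65.2% of 21288 genes did. F6'H1 (-1.71 ± 0.1, adjusted p = 2.12e-07) and NAS4 (-1.77 ± 0.23, adjusted p = 5.84e-05) were lower in chr11/17. ABCG37 (0.71 ± 0.08, adjusted p = 1.67e-05) and FER1 (0.85 ± 0.1, adjusted p = 2.47e-05) were higher there. IRT1 did not differ by this test (-0.69, 95% interval -1.61 to 0.24), nor did FRO2 (-0.41, 95% interval -1.21 to 0.4), and these intervals leave room for sizeable differences.

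Between chr11/17 and rlt1/2 all 9 genes differed, where 64.8% of genes did. IRT1 (-1.77 ± 0.38, adjusted p = 0.00203), FRO2 (-1.41 ± 0.33, adjusted p = 0.00345) and CYP82C4 (-3.49 ± 0.7, adjusted p = 0.00129) were lower in chr11/17. So were F6'H1 (-1.75 ± 0.1) and NAS4 (-1.8 ± 0.23), while ABCG37 (0.54 ± 0.08), FER1 (1.1 ± 0.1) and FER4 (0.4 ± 0.09) were higher. Without rlt1/2 replicate 1 the IRT1 difference was -1.12. Without chr11/17 replicate 1 or 2 the CYP82C4 difference was -5.19 or -2.72. FRO3 differed least (-0.25 ± 0.08, adjusted p = 0.0141), and its call was lost without chr11/17 replicate 2 (-0.21, adjusted p = 0.0724) or rlt1/2 replicate 1 (-0.18, adjusted p = 0.103).

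Between rlt1/2 and arid5 edgeR called 0 of the 9 genes, where 0.366% of genes, 78 in number, differed. At an unadjusted p under 0.05 IRT1, FRO2 and CYP82C4 were higher in rlt1/2 and FER1 and FER4 lower, and DESeq2 also called 0. The interval for F6'H1 was narrow (0.04, 95% interval -0.17 to 0.25). Those for IRT1 (1.09, 95% interval 0.29 to 1.88) and CYP82C4 (2.45, 95% interval 1.1 to 3.79) were wide. So the falls of IRT1 and FRO2 in arid5 and their absence among the calls in rlt1/2 were not shown to differ after adjustment.

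**Figure D3:**
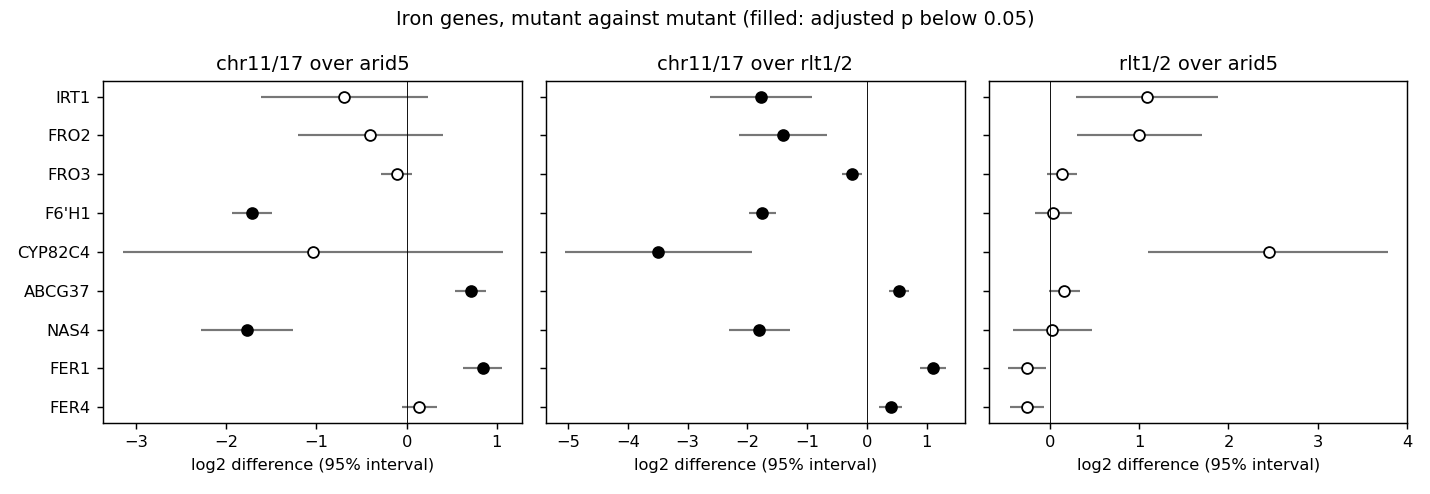
Log2 difference between mutants for the 9 genes with 95% intervals, from edgeR on the recovered reads; filled points have an adjusted p below 0.05. F6'H1 and NAS4 lie near -1.7 to -1.8 in chr11/17 against either other mutant, and no point is filled for rlt1/2 against arid5.

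The relatives of these genes were followed as a family check. The 4 ferritin genes rose in all 3 mutants, as 15% of the 20258 genes tested throughout did. FER2, the ferritin gene known from seeds, had 28 and 42 in WT and 145 and 94 in arid5 (1.53 ± 0.24, adjusted p = 0.000257). It had 28 and 41 in WT and 248 and 205 in chr11/17 (2.42 ± 0.21, adjusted p = 5.39e-05), and with rlt1/2 it went from 31 and 46 to 128 and 184 (1.78 ± 0.22, adjusted p = 4.39e-05). FER3 had 570 and 613 in WT and 1026 and 916 in arid5 (0.7 ± 0.08, adjusted p = 2.6e-05). With chr11/17 FER3 had the same WT values, to the whole number, and 1560 and 1924 in the mutant (1.54 ± 0.11). In the rlt1/2 table it had 632 and 677 in WT and 1016 and 1093 in the mutant (0.68 ± 0.08). Like FER1, FER3 was higher in chr11/17 than in arid5 (edgeR, 0.87 ± 0.1, adjusted p = 2.92e-05) and than in rlt1/2 (0.9 ± 0.1, adjusted p = 2.34e-05). FER2 was also higher in chr11/17 than in arid5 (0.95 ± 0.24, adjusted p = 0.00488), and its difference from rlt1/2 (0.72 ± 0.23, adjusted p = 0.0184) lost its call without chr11/17 replicate 1 (0.57, adjusted p = 0.0967) or rlt1/2 replicate 1 (0.49, adjusted p = 0.136). Coding sequences of the 4 ferritin genes are 67.7% to 78.4% identical, with no identical run above 32 bases.

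**Figure D4:**
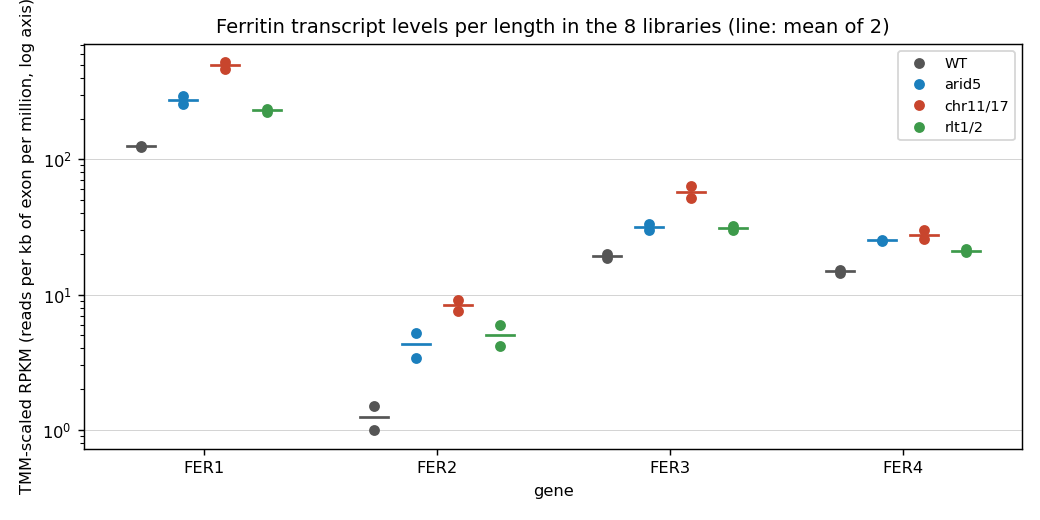
Ferritin transcript levels as TMM-scaled RPKM (reads per kb of exon, log axis) in the 8 libraries; points are libraries and lines the mean of 2. FER1 stands at 124 in WT and 494 in chr11/17, FER2 at 1.25 and 8.34, FER3 at 19.2 and 57.6, and FER4 at 14.8 and 27.7.

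Among the nicotianamine synthase genes, NAS3 rose in all 3 mutants. Its values went from 722 and 560 in WT to 2592 and 1878 in arid5 (1.78 ± 0.14), and from 722 and 559 to 2605 and 2264 in chr11/17 (1.92 ± 0.13). In the rlt1/2 table NAS3 went from 799 and 619 to 2463 and 2579 (1.83 ± 0.1). NAS1 rose in arid5 (1.12 ± 0.07, adjusted p = 3.47e-07) and rlt1/2 (1.26 ± 0.08, adjusted p = 2.73e-07) and did not pass in chr11/17 (0.12 ± 0.06). NAS2 had 54 and 52 in WT, 113 and 95 in arid5 (0.85 ± 0.18, adjusted p = 0.00231) and 3.8 and 3.8 in chr11/17 (-2.19 ± 0.2, adjusted p = 6.3e-05, and -3.48 with a pseudocount of 1). In the chr11/17 table NAS2 met the filter on low values through WT alone. It was lower in chr11/17 than in arid5 by edgeR (-4.7 ± 0.32, adjusted p = 5.12e-07), as was NAS1 (-0.98 ± 0.1, adjusted p = 7.92e-06). The NAS2 rise in rlt1/2 (0.55 ± 0.19, adjusted p = 0.03) did not pass when WT replicate 1 (0.57, adjusted p = 0.0757), WT replicate 2 (0.53, adjusted p = 0.098) or rlt1/2 replicate 1 (0.44, adjusted p = 0.157) was left out. NAS4 is 80.1% identical in coding sequence to NAS3, which rose in chr11/17 while NAS4 fell.

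Reductase genes of the shoot fell. FRO6, a leaf plasma membrane reductase, had 12137 and 11820 in WT and 4770 and 4415 in arid5 (-1.38 ± 0.06, adjusted p = 3.62e-08). In the chr11/17 table FRO6 had 12120 and 11803 in WT and 688 and 1030 in the mutant (-3.81 ± 0.17, adjusted p = 3.51e-06). With rlt1/2 it had 13439 and 13048 against 5467 and 4106 (-1.48 ± 0.11, adjusted p = 1.2e-06). FRO7, the chloroplast reductase, changed by -0.75 ± 0.06, -2.45 ± 0.13 and -0.91 ± 0.11 in the same order. FRO6 and FRO7 coding sequences are 93.8% identical with an identical run of 375 bases, so reads may have been split between them. These falls stood beside the fall of all 15 green tissue markers, whose part was not tested. FRO4 fell in all 3 mutants (-0.56 ± 0.11, -2.4 ± 0.16 and -0.94 ± 0.13), and FRO5, 92.6% identical to it, fell in chr11/17 (-1.09 ± 0.2, and -1.68 by edgeR) and rlt1/2 (-1.64 ± 0.26, and -2.69 with a pseudocount of 1). The FRO5 fall in arid5 (-0.86 ± 0.31, adjusted p = 0.038) did not pass once WT replicate 1 (-0.85, adjusted p = 0.107), WT replicate 2 (-0.87, adjusted p = 0.0971) or arid5 replicate 1 (-0.37, adjusted p = 0.376) was dropped. FRO8 rose in arid5 (0.32 ± 0.07, adjusted p = 0.00236). Its fall in chr11/17 (-0.28 ± 0.1, adjusted p = 0.0363) did not hold without WT replicate 1, WT replicate 2 or chr11/17 replicate 1 (-0.31, -0.25 and -0.15, with adjusted p of 0.0889, 0.152 and 0.0915).

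Relatives of IRT1 were higher wherever they passed the test. IRT3, a zinc and iron transporter gene, had 472 and 502 in WT and 905 and 837 in arid5 (0.83 ± 0.08, adjusted p = 6.71e-06), and it rose in chr11/17 (1.34 ± 0.08) and rlt1/2 (0.91 ± 0.09). IRT2, which precedes IRT1 on the chromosome, had 33 and 24 in WT and 60 and 72 in chr11/17, a 2.33-fold rise (0.99 ± 0.21, adjusted p = 0.00408). In rlt1/2 it had 67 and 118 against 36 and 27, a 2.95-fold rise (1.28 ± 0.26, adjusted p = 0.00138), and in arid5 its change of 0.57 ± 0.22 did not pass. F6'H2 did not pass in any mutant (0.03 ± 0.29, 0.62 ± 0.27 and 0.63 ± 0.3). CYP82C2 passed in chr11/17 (1.8 ± 0.56, adjusted p = 0.0228, from 12 and 0 reads to 22 and 82), which it no longer did with WT replicate 2 (1.22, adjusted p = 0.0966) or chr11/17 replicate 2 (1.03, adjusted p = 0.0584) set aside. FRO1 and CYP82C3 were too low to test.

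Beyond these families, 76 other genes of the iron pathway were listed by role. The lists were chosen with earlier results of these data known, so counts above the background describe these genes and do not test the lists. Of the 71 tested in arid5, 26 were higher and 23 lower, of 72 in chr11/17 34 and 28, and of 72 in rlt1/2 28 and 23. Their median log2 change was 0.1, 0.14 and 0.07 in that order, and the median over all genes was near 0, as given above. The background for the list counts that follow is 23.3% of all genes higher and 24.6% lower in arid5, 35.9% and 36% in chr11/17, and 23.8% and 24% in rlt1/2.

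In the coumarin list, 12 of 14 tested genes were higher in chr11/17 and the others did not pass (median 1.43), where 35.9% of all genes were higher. The list had 5 higher and 1 lower of 13 in arid5 (median 0.16) and 8 and 1 of 14 in rlt1/2 (median 0.33), beside 23.3% and 23.8% of all genes higher. The genes of the general phenylpropanoid steps, which feed lignin and flavonoids as well, were among those that rose in chr11/17 (PAL1, C4H, 4CL1 and 4CL2). HCT, C3'H and CCoAOMT1 were also among them. So was CYP82C2, whose call depended on single libraries, as given above. PAL1, the entry enzyme of the pathway, had 5368 and 5176 in WT and 15434 and 14272 in chr11/17 (1.49 ± 0.08, adjusted p = 8.76e-06). C4H rose there by 2.17 ± 0.11 and 4CL2 by 1.94 ± 0.08, and both also rose in arid5 (0.39 ± 0.05 and 0.64 ± 0.11) and rlt1/2 (0.43 ± 0.08 and 0.85 ± 0.08). BGLU22, a root beta-glucosidase gene, rose in all 3 mutants (1.5 ± 0.11, 2.47 ± 0.12 and 1.74 ± 0.17). BGLU21 (0.76 ± 0.1, 1.4 ± 0.1 and 1.01 ± 0.13) and BGLU23 (1.08 ± 0.09, 1.57 ± 0.15 and 1.15 ± 0.16) rose as well. F6'H1, which follows these general steps, was not called in chr11/17, as given above, and neither was its relative F6'H2. COSY, another gene of the coumarin list, was among those that rose in chr11/17. Its TMM-scaled RPKM was 2.8 and 2.86 in WT and 6.18 and 5.77 in chr11/17. COSY was higher there than in arid5 (edgeR, 0.75 ± 0.14, adjusted p = 0.000721) and was named after its values were seen.

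In the uptake list, 4 of 10 tested genes were higher and 4 lower in arid5, 4 and 5 in chr11/17, and 3 and 4 in rlt1/2. AHA2, the root proton pump gene, had 16925 and 16851 in WT and 23544 and 21195 in arid5 (0.4 ± 0.07, adjusted p = 0.000492). It did not pass in chr11/17 (0.13 ± 0.11), except without chr11/17 replicate 2 (0.22, adjusted p = 0.00361), and its rise in rlt1/2 (0.41 ± 0.11, adjusted p = 0.0078) did not pass with either WT library left out (0.41 and 0.4, adjusted p of 0.183 and 0.193).

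In the list of chelation and distribution, 8 of 21 genes were higher and 6 lower in arid5, 10 and 8 in chr11/17, and 8 and 6 in rlt1/2. YSL1, a carrier of iron-nicotianamine in leaves and seeds, had 570 and 575 in WT and 1777 and 1752 in arid5 (1.61 ± 0.06, adjusted p = 2.78e-08). It rose by 3.11 ± 0.08 in chr11/17, to 5317 and 4704, and by 1.47 ± 0.08 in rlt1/2. NRAMP3, which releases iron from the vacuole, had 300 and 275 in WT and 3785 and 3385 in chr11/17, a 12.5-fold rise (3.6 ± 0.09, adjusted p = 6.09e-07), and rose by 0.72 ± 0.1 in arid5 and 1.18 ± 0.1 in rlt1/2. FPN3, a ferroportin of plastids and mitochondria, fell in all 3 (-0.76 ± 0.06, -1.68 ± 0.08 and -0.86 ± 0.08).

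In the list of storage and iron excess, which holds FER2 and FER3, 5 of 8 tested genes were higher and 1 lower in arid5, 4 and 2 in chr11/17, and 5 and 1 in rlt1/2. APX1, a cytosolic ascorbate peroxidase gene, rose in all 3 (0.63 ± 0.06, 1.68 ± 0.11 and 0.64 ± 0.09). VTL1, which codes for a vacuolar iron carrier, rose in arid5 (1.03 ± 0.16, adjusted p = 0.000275) and rlt1/2 (0.9 ± 0.17, adjusted p = 0.000808) and did not pass in chr11/17 (0.15 ± 0.18). NEET, an iron-sulfur protein gene, fell in chr11/17 (-1.69 ± 0.18, adjusted p = 0.000125) and rlt1/2 (-0.45 ± 0.07, adjusted p = 0.000361). It also fell in arid5 (-0.22 ± 0.07, adjusted p = 0.016), a call lost when WT replicate 2 (-0.2, adjusted p = 0.101) or arid5 replicate 1 (-0.18, adjusted p = 0.0875) was left out, and with equal library totals the arid5 value was 0.04.

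Among the regulators, 11 of 19 tested genes were lower and 4 higher in arid5, where 24.6% of all genes were lower. In chr11/17 13 were lower and 4 higher, beside 36% of all genes lower, and in rlt1/2 11 and 4, beside 24%. IMA3, a peptide that promotes iron uptake, had 428 and 440 in WT and 39 and 61 in arid5 (-2.91 ± 0.18, adjusted p = 3.44e-07), and it fell in chr11/17 (-4.07 ± 0.32, and -4.72 with a pseudocount of 1) and rlt1/2 (-2.31 ± 0.21). FIT, the transcription factor that activates IRT1 and FRO2, had 127 and 115 in WT, 264 and 214 in arid5 (0.92 ± 0.15, adjusted p = 0.000343) and 33 and 22 in chr11/17 (-1.83 ± 0.21, adjusted p = 0.000203). FIT also rose in rlt1/2 (0.8 ± 0.19, adjusted p = 0.00422) and was lower in chr11/17 than in arid5 (edgeR, -3.1 ± 0.28, adjusted p = 4.14e-06). FIT was named after its values were seen. The bHLH Ib genes, whose products pair with FIT, were lower in all 3 mutants. Of these, bHLH100 had 84 and 89 in WT and no reads in arid5, at least 30.2-fold lower against 3 reads per library (adjusted p = 7.94e-07). It had 0 and 1 in chr11/17 (adjusted p = 1.26e-05), and 11 and 0.4 against 93 and 98 in the rlt1/2 table (adjusted p = 1.52e-05). The log2 changes in arid5 were -2.14 ± 0.35 for bHLH38, -2.3 ± 0.23 for bHLH39 and -1.85 ± 0.24 for bHLH101, named after their values were seen. They were -2.02, -2.44 and -2.43 in chr11/17 and -1.81, -1.61 and -1.99 in rlt1/2. With few reads left in the mutants these sizes depend on the pseudocount, and with 1 in place of 10 they ranged from -1.93 to -5.09. In arid5, bHLH38 (0 and 0.9), bHLH100 (0 and 0) and bHLH101 (4.8 and 6.6) were under 10 and met the filter on low values through WT alone. PYE, a repressor of iron genes, fell in arid5 (-1.16 ± 0.11) and rlt1/2 (-1.11 ± 0.12) and did not pass in chr11/17 (-0.26 ± 0.11), where it passed without chr11/17 replicate 1 (-0.33, adjusted p = 0.0244). BTSL1, an E3 ligase gene related to BTS, fell in chr11/17 (-2.01 ± 0.16, adjusted p = 3.85e-05), and bHLH115 rose in all 3 (0.72 ± 0.05, 0.53 ± 0.07 and 0.61 ± 0.07). BTS, an E3 ligase gene of the iron response, fell in all 3 (-0.96 ± 0.06, -1.46 ± 0.07 and -0.85 ± 0.09).

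**Figure D5:**
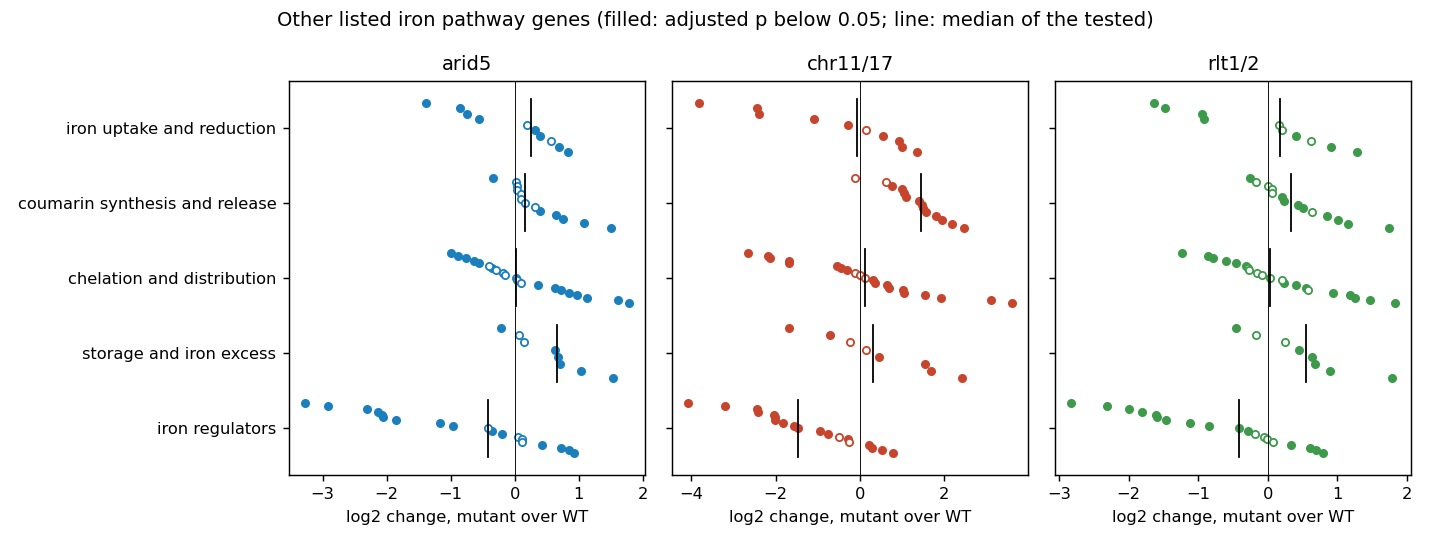
Log2 change of the other listed iron pathway genes by role, 1 panel per mutant; filled points have an adjusted p below 0.05 (limma) and the line is the median of the tested genes. The coumarin list in chr11/17 lies almost wholly above 0 (median 1.43), and the regulator list has a median of -0.41 in arid5, -1.46 in chr11/17 and -0.41 in rlt1/2.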

How the data were processed

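Values came from 3 tables, with 1 mutant and WT in each. HISAT2, edgeR and TAIR10 are named in the submitters' processing notes. The versions, counter, annotation and strand setting were not given in the sources used here. The deposited values are a normalised signal per gene, scaled within each table, so levels were compared within a table. They equal edgeR's quantile-adjusted pseudo-counts and were inverted to whole reads: 100% of values came back whole within a relative tolerance of 1e-08. Table column totals differ from read totals.

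Each mutant was tested against WT with limma 3.58.1 (R 4.3.3, trend) on log2(value + 10), keeping genes with at least 10 in 2 libraries, two-sided, Benjamini-Hochberg adjusted over the table. A gene low in 1 group can meet that filter through the other group alone. Mutants were compared with edgeR 4.0.16 (quasi-likelihood, TMM) on recovered reads; DESeq2 1.42.0 was an alternative. The fits were tested on simulated counts in which a small set of well-covered genes was changed, at 1 fixed dispersion. Changes in a large share of genes, and genes with few reads, were not covered by it. Per-length levels used merged exons of RefSeq TAIR10.1; the files hold no coordinates. Sequences came from the RefSeq genome.

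The members and gene lists were chosen with earlier results of these data known. Named genes are the members, their tested relatives, up to 4 called genes per list and mutant with the smallest adjusted p, and the mutated genes. PCR reads are not independent molecules.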

Additional observations from a re-analysis of the deposited data

How the results depend on the processing

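Against WT, 297 alternative values of the members kept their direction and their side of the threshold, 15 changed sign, and 4 others lost and 4 others gained a call. A value that changed sign was not counted again as a lost or gained call. IRT1 in rlt1/2 without rlt1/2 replicate 1, given above, both changed sign and gained a call. Counts of called members moved by at most 1 under the other pseudocount, filters, scalings and tools. With a filter at 50, which CYP82C4 does not meet, 2 were lower in arid5 and 3 in chr11/17. FRO3 made 5 higher in arid5 with equal library totals or quantile normalization. Leaving out 1 library gave 1 to 3 members lower in arid5, 3 to 4 lower in chr11/17, and 4 to 6 higher and 0 to 2 lower in rlt1/2. It gave 4 to 5 called between chr11/17 and arid5, and 8 to 9 between chr11/17 and rlt1/2. The count of 1 came without WT replicate 1, and the count of 2 without rlt1/2 replicate 1.

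Equal library totals moved the median log2 change of all genes to 0.253 in arid5, 0.147 in chr11/17 and 0.269 in rlt1/2. There NAS4 (0.24) and NEET (0.04) changed sign in arid5 and FRO2 (0.03) in rlt1/2, each below the shift of its table, and 40 listed pathway genes were higher in arid5 in place of 26. Quantile normalization turned F6'H2 in arid5 (-0.16), NAS1 in chr11/17 (-0.01), and IRT1 (-0.08), CYP82C4 (-0.11), NAS4 (-0.01) and CYP82C2 (-0.22) in rlt1/2. With edgeR, NAS4 (0.01) and F6'H2 (-0.02) turned in arid5 and CYP82C2 (-0.1) in rlt1/2, and with DESeq2 F6'H2 (-0.02) and CYP82C2 (-0.08) did. Apart from NEET, none of these genes had passed the test in that mutant. The cause was not tested.

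Leaving out 1 library also turned values that had not passed. The ranges against WT were -0.3 to 0.35 for F6'H2 and -0.25 to 0.22 for NAS4 in arid5, and -0.03 to 0.34 for VTL1 in chr11/17. In rlt1/2 they were -0.53 to 0.58 for IRT1, -0.68 to 0.24 for FRO2, -0.3 to 0.51 for CYP82C4, -0.21 to 0.26 for NAS4, -0.54 to 0.39 for CYP82C2 and -0.01 to 0.34 for FRO8. CYP82C4 ranged from -2.74 to 0.23 in chr11/17 against arid5. In rlt1/2 against arid5 the ranges were -0.22 to 0.3 for NAS4, -0.12 to 0.17 for F6'H1, -0.1 to 0.05 for FER3, -0.04 to 0.57 for FER2 and -0.46 to 0.18 for FIT.

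WT was paired with each mutant by replicate number. Deviations from the group means correlated at -0.00254 for arid5, 0.0139 for chr11/17 and 0.156 for rlt1/2. Mutants were not paired with each other, so whether same-numbered samples share more than a number was not settled. With that number as a replicate block, all-gene calls in rlt1/2 went from 4944 higher and 4982 lower to 5680 and 5684. In arid5 they went from 4784 and 5062 to 4832 and 5083, and in chr11/17 from 7485 and 7507 to 7387 and 7446. With the block, 4 members were higher and 3 lower in arid5, 3 and 4 in chr11/17, and 5 and 0 in rlt1/2, the same counts as without it. Depth limits CYP82C4 most, at 1 to 12 reads per library in arid5 and chr11/17.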
